A study of Homo sapiens with 5 samples.

Results

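Mitochondria carry their own ribosome, the mitoribosome, which makes the respiratory chain subunits that are still encoded by mitochondrial DNA. Its rRNAs are mitochondrial, but all of its proteins are encoded in the nucleus, made in the cytosol and imported. The proteins of the large subunit, which holds the peptidyl transferase center, carry *MRPL* symbols, and those of the small subunit, which binds and decodes the mRNA, carry *MRPS* symbols. Many have bacterial homologs, while others occur only in mitochondria. Mitochondrial translation is known as a dependency of many AML cells. Here, the members of this gene family were chosen as the protein-coding genes of the count table whose symbol starts with *MRPL* or *MRPS* followed by a number. This gave 77 of the 27328 genes in the table, 48 *MRPL* and 29 *MRPS* genes. GENCODE 44 lists 78 such genes, and *MRPL53* was not analysed here. A further 88 pseudogenes and non-coding genes with such symbols, 33 of them in the table, were left out.

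The cells were TF-1, an established human AML line of erythroid and myeloid character. RNA was measured in 5 libraries, each from a pool of 4 single-cell clones grown after lentiviral delivery of Cas9 and an sgRNA. The 2 control pools (sgCtrl pools 1 and 2) carried an sgRNA against *renilla luciferase*, and the 3 *MTSS1* knockout pools carried sgMTSS1_1 or sgMTSS1_2, against exon 1, or sgMTSS1_3, against exon 5. Knockout clones had been chosen by immunoblot, no further treatment was applied, and each knockout pool has its own sgRNA, so that sgRNA, clones and pool cannot be told apart. Libraries were 3′ mRNA libraries, which yield reads from the end of the transcript in proportion to molecules and not to length.

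Total counts were 2849979 and 3408827 in the control pools and ranged from 5442639 to 8854899 in the knockout pools, the sgMTSS1_1 pool being the deepest. Every knockout library was deeper than both control libraries, and depth and condition cannot be told apart from the libraries as they are. Levels are given in CPM, the usual counts scaled to a common total of reads, with TMM factors, and 3 counts amount to between 0.389 and 0.938 CPM. The *MTSS1* mRNA was at 204 and 87.9 CPM in control and at 104, 139 and 49.9 CPM in knockout pools (values of knockout pools are given throughout in the order sgMTSS1_1, sgMTSS1_2, sgMTSS1_3). The groups overlapped (log2-fold change −0.58, SE 0.47, edgeR's adjusted p = 0.494), so the mRNA does not check the labels. All 7 markers of TF-1 cells looked at (*CD34*, *CD33*, *KIT*, *GATA1*, *CSF2RA*, *CSF2RB*, *IL3RA*) were counted in every pool, with sums of 416 to 472 CPM in control and 478 to 675 CPM in knockout pools. The markers did not all go the same way. Mean levels in control and knockout pools were 122 and 242 CPM for *CD34*, 130 and 122 CPM for *CD33*, and 95.4 and 64.7 CPM for *GATA1*. Of 11 markers of other blood, stromal and epithelial cells, 7 were in the table, and their summed level was between 2.53 and 7.83 CPM per pool, with *CD79A* the highest at 6.25 CPM.

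After a filter on low counts, 73 members were tested, 46 *MRPL* and 27 *MRPS* genes. Knockout pools were on average higher for most of them. The log2-fold change, knockout against control, was above 0 for 58 members and below 0 for 15, with a median of 0.44, beside −0.03 over all 14391 tested genes. Few of these differences passed the test one gene at a time. By edgeR's quasi-likelihood test, 3 members rose in the knockout, with a Benjamini-Hochberg adjusted p under 0.05 and a log2-fold change above 1, where 4.17% of all tested genes were called higher. By edgeR with the filter the share of members called was thus near that of all genes (4.11% of members), but this depended on the tool and the filter. On the same genes limma-voom called 6.85% of members higher, against 3.54% of all tested genes. DESeq2 called 16.9% of the 77 members higher, against 3.81% of all 27328 genes, and edgeR without a filter 14.3%, against 4.29%. Among the genes that pass the filter, the shares called higher were 17.8% of members against 7.23% of all genes with DESeq2, and 15.1% against 8.03% in the edgeR fit without a filter. No member was called lower by edgeR, DESeq2 or limma-voom, where edgeR called 1.01% of all tested genes lower. An unadjusted p under 0.05 was reached by 17 members on the higher side (23.3%, against 14.1% of all tested genes) and 2 on the lower side (2.74%, against 9.23%). In bulk RNA, more cells with an mRNA and more of it per cell cannot be told apart.

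The position of the pools relative to each other gives a second view. In 27 members (37.0%) every knockout pool lay above both control pools, against 22.2% of all tested genes. In 4 members (5.48%), *MRPL12*, *MRPL46*, *MRPS7* and *MRPS31*, every knockout pool lay below both control pools, against 19.2% of all tested genes. In the other 42 members the groups overlapped.

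**Figure D1:**
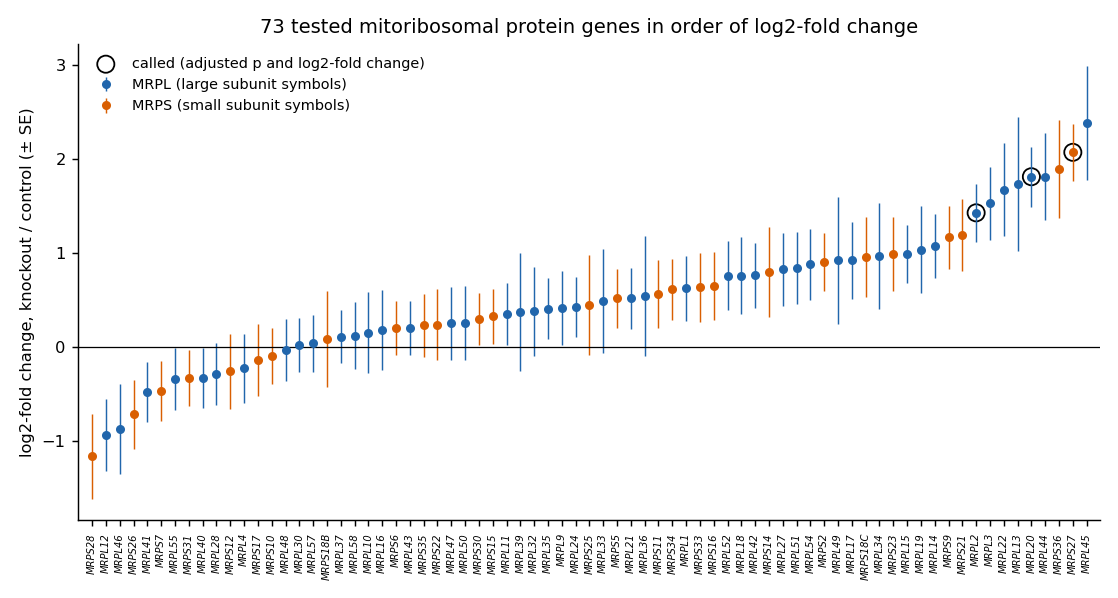
Log2-fold change, knockout over control, with its standard error for each of the 73 tested members, in order, with *MRPL* genes in blue, *MRPS* genes in orange and a ring around the 3 called genes. The order runs from *MRPS28* at −1.17 to *MRPL45* at 2.39, both subunits are spread over the whole range, and the gene with the largest change is not among the called ones.

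*MRPS27* changed most among the members that passed the test. It encodes a pentatricopeptide repeat protein of the small subunit that has no bacterial homolog, and lies on chromosome 5 (72214953 to 72321717, minus strand, ENSG00000113048; all positions are on GRCh38). It was at 26.6 and 27.1 CPM in control and at 125, 102 and 112 CPM in knockout pools. The control pools were nearly equal and all knockout pools were far above them. The means were 26.8 ± 0.383 CPM (SD, n = 2) and 113 ± 11.3 CPM (SD, n = 3), a 4.21-fold difference (log2-fold change 2.07, SE 0.30, edgeR's adjusted p = 0.011). *MRPS27* passed the test in each of 15 alternative analyses, with log2-fold changes between 1.93 and 2.22.

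*MRPL20*, the homolog of a bacterial large subunit protein needed early in assembly, lies on chromosome 1 (1401909 to 1407293, minus strand, ENSG00000242485). It was measured at 62.5 and 66.8 CPM in control and at 277, 184 and 220 CPM in knockout pools. Again the control pools were close together and the groups did not overlap. The means were 64.6 ± 2.98 CPM (SD, n = 2) and 227 ± 47.0 CPM (SD, n = 3), 3.51-fold apart (log2-fold change 1.81, SE 0.32, edgeR's adjusted p = 0.018). Without the sgMTSS1_1 or the sgMTSS1_3 pool, *MRPL20* no longer passed (adjusted p = 0.0612 and 0.0639), with log2-fold changes of 1.63 and 1.87. Its 3′ end overlaps *MRPL20-AS1* on the opposite strand, and if strand was ignored in counting, the reads of this pair cannot be told apart.

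*MRPL2*, whose bacterial homolog lies beside the peptidyl transferase center, lies on chromosome 6 (43054029 to 43059438, minus strand, ENSG00000112651). Its level was 15.0 and 18.5 CPM in control and 42.0, 45.0 and 48.4 CPM in knockout pools. The 3 knockout pools agreed more closely here than for the other called members. The difference was 2.69-fold (16.7 ± 2.45 CPM, SD, n = 2, against 45.1 ± 3.17 CPM, SD, n = 3; log2-fold change 1.43, SE 0.31, edgeR's adjusted p = 0.033). In 6 of the 15 alternatives, among them leaving out control pool 1 or any of the knockout pools, the adjusted p of *MRPL2* was between 0.0504 and 0.116, at log2-fold changes from 1.19 to 1.47.

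**Figure D2:**
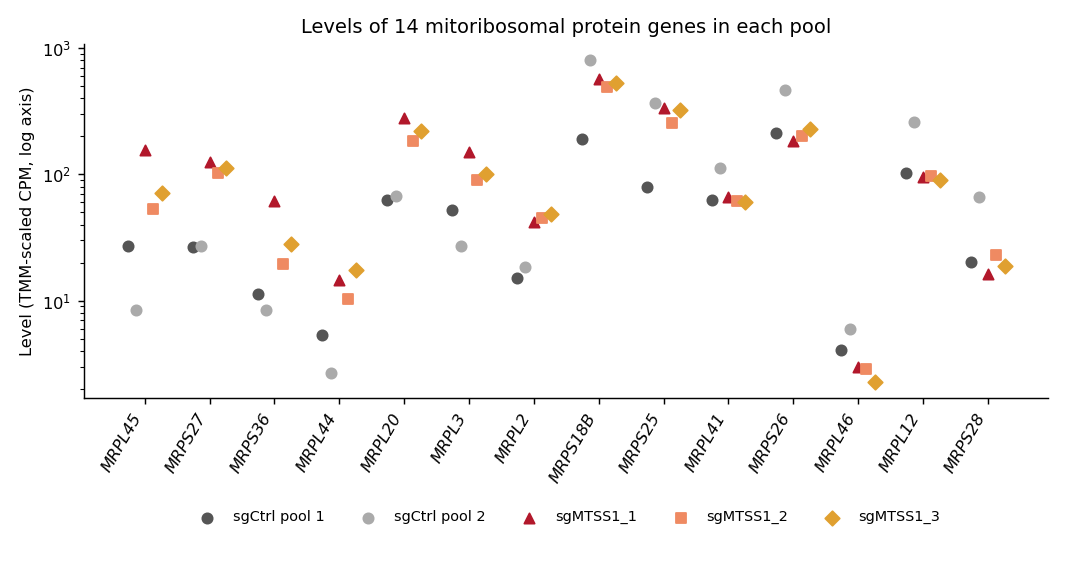
Levels of 14 members in the 2 control pools (circles) and the 3 knockout pools (triangle, square and diamond), in TMM-scaled CPM on a log axis. For *MRPS27*, *MRPL20* and *MRPL2* the control pools coincide or nearly so below the knockout pools, whereas for *MRPS18B*, *MRPS25*, *MRPS26*, *MRPL12* and *MRPS28* the control pools stand wide apart.

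Among large subunit genes that did not pass, *MRPL45* had the largest log2-fold change of all members. Its product sits near the exit of the peptide tunnel, where the mitoribosome meets the inner membrane. The gene lies on chromosome 17 (38297023 to 38323217, plus strand). It was at 27.2 and 8.34 CPM in control and at 155, 52.7 and 70.8 CPM in knockout pools. All knockout pools lay above both control pools, but pools of the same group differed severalfold (log2-fold change 2.39, SE 0.61, edgeR's adjusted p = 0.053). *MRPL45* passed in 10 of the 15 alternatives, with a log2-fold change of 3.49 without control pool 1 (adjusted p = 0.0245). Without control pool 2 or the sgMTSS1_1 pool its log2-fold change was 1.80 or 1.79 (adjusted p = 0.112 and 0.154).

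*MRPL44*, a large subunit protein related to RNase III, was at 5.32 and 2.68 CPM in control and 14.5, 10.3 and 17.4 CPM in knockout pools (log2-fold change 1.81, SE 0.47, edgeR's adjusted p = 0.054). The groups did not overlap, at a low level in all pools, and an unnamed gene overlaps its 3′ end on the opposite strand. *MRPL3*, the homolog of a bacterial protein that reaches into the peptidyl transferase center, was at 51.9 and 26.8 CPM in control and 149, 90.8 and 100.04 CPM in knockout pools (log2-fold change 1.53, SE 0.39, edgeR's adjusted p = 0.054). *MRPL3* too was higher in every knockout pool, and the sgMTSS1_1 pool was the highest. Without control pool 1 both passed, with log2-fold changes of 2.40 (*MRPL44*, adjusted p = 0.0355) and 2.09 (*MRPL3*, adjusted p = 0.0240). Without control pool 2 they were 1.43 and 1.15 (adjusted p = 0.125 and 0.115), and without the sgMTSS1_1 pool 1.78 and 1.27 (adjusted p = 0.150 and 0.153). *MRPL13*, another protein of bacterial origin, was at 54.1 and 31.3 CPM in control and 301, 47.3 and 77.1 CPM in knockout pools (log2-fold change 1.74, SE 0.72, edgeR's adjusted p = 0.183). For *MRPL13* the sgMTSS1_1 pool alone stood far out and the sgMTSS1_2 pool lay between the control pools, and without the sgMTSS1_1 pool the log2-fold change was 0.53.

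At the low end of the large subunit was *MRPL12*, a protein of the ribosomal stalk that also binds the mitochondrial RNA polymerase. It was at 102 and 260 CPM in control and at 94.8, 97.5 and 89.95 CPM in knockout pools (log2-fold change −0.94, SE 0.38, edgeR's adjusted p = 0.177). The knockout pools were nearly equal, just under control pool 1, so that the size of the difference comes from control pool 2. *MRPL46* had the lowest mean level of all tested members, with 4.06 and 5.96 CPM in control and 2.98, 2.89 and 2.26 CPM in knockout pools (log2-fold change −0.88, SE 0.48, edgeR's adjusted p = 0.309). Another gene overlaps the 3′ end of *MRPL46* on the same strand. *MRPL41* was at 62.5 and 112 CPM in control and 65.5, 61.7 and 59.9 CPM in knockout pools (log2-fold change −0.49, SE 0.32, edgeR's adjusted p = 0.401), where only control pool 2 stood apart.

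The small subunit held the members with the highest levels. In 3′ libraries a level follows molecules without division by length, but it also depends on how well each 3′ end is captured, so the order of genes is approximate. *MRPS18B* was at 192 and 803 CPM in control and 567, 488 and 526 CPM in knockout pools, *MRPS12* at 232 and 577 CPM and 396, 311 and 306 CPM, *MRPS25* at 79.1 and 367 CPM and 332, 254 and 324 CPM, and *MRPS26* at 211 and 465 CPM and 183, 203 and 229 CPM. In each of these 4 genes control pool 2 was the highest of all pools. Their log2-fold changes were 0.09, −0.26, 0.44 and −0.72 (SE 0.51, 0.40, 0.53 and 0.37), with edgeR's adjusted p between 0.274 and 0.942. For *MRPS12*, the homolog of a bacterial protein of the decoding center in which streptomycin resistance arises, and for *MRPS18B* and *MRPS25* the sign depended on which control pool was kept. Without control pool 1 the values were −0.76, −0.59 and −0.26, and without control pool 2 they were 0.57, 1.49 and 1.97, the last 2 of which passed (edgeR's adjusted p = 0.0378 and 0.0192). *MRPS25* overlaps *NR2C2* on the opposite strand and a gene without a name on its own strand at the 3′ end.

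*MRPS28*, a small subunit protein related to bacterial S1, had the lowest log2-fold change of all members, −1.17 (SE 0.45, edgeR's adjusted p = 0.158). Its level was 20.3 and 65.9 CPM in control and 16.2, 22.7 and 18.6 CPM in knockout pools. Control pool 1 lay among the knockout pools, and the difference rests on control pool 2. Another gene overlaps its 3′ end on the same strand. Without control pool 1, *MRPS28*, *MRPL12* and *MRPS26* were called lower, with log2-fold changes of −1.77, −1.45 and −1.17, and without control pool 2 the log2-fold changes were −0.06, −0.08 and −0.01.

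Some symbols do not tell where a protein works. *MRPS36* was first described as a small subunit protein and is known as a component of the 2-oxoglutarate dehydrogenase complex. It was at 11.3 and 8.34 CPM in control and 61.7, 19.3 and 28.01 CPM in knockout pools (log2-fold change 1.89, SE 0.52, edgeR's adjusted p = 0.067), higher in every knockout pool and most of all in the sgMTSS1_1 pool. It has 5 annotated pseudogenes, and the authors removed reads that did not map uniquely, so its level may be understated. *MRPS30*, whose product is part of the large subunit in the assembled particle, was at 61.6 and 64.7 CPM in control and 69.3, 79.1 and 84.6 CPM in knockout pools (log2-fold change 0.30, SE 0.28, edgeR's adjusted p = 0.568). Its groups did not overlap, but the difference was small beside its error. *MRPL58*, the peptidyl-tRNA hydrolase of the large subunit that rescues stalled mitoribosomes, was at 50.3 and 31.6 CPM in control and 58.4, 33.0 and 41.6 CPM in knockout pools (log2-fold change 0.12, SE 0.36, edgeR's adjusted p = 0.881), with overlapping groups.

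The homologs of bacterial S18 are encoded by 3 genes. *MRPS18B* is described above. *MRPS18C* was at 6.25 and 7.15 CPM in control and 18.5, 10.5 and 9.92 CPM in knockout pools (log2-fold change 0.96, SE 0.43, edgeR's adjusted p = 0.217). All its knockout pools were above both control pools, though it overlaps *ABRAXAS1* on the opposite strand and has 3 pseudogenes. *MRPS18A*, whose product belongs to the large subunit, was among the 4 members removed by the filter. It had 2 and 5 counts in control and 2, 0 and 0 counts in knockout pools.

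The other removed members were *MRPS24* with 0 and 2 counts in control and 1, 0 and 0 in knockout pools, *MRPL23* with 1 and 1 against 6, 1 and 0, and *MRPL38* with 3 and 2 against 6, 5 and 2. No fold change is given at such counts. The last 300 exonic bases of *MRPS24* overlap an exon of *URGCP-MRPS24* on the same strand, those of *MRPS18A* overlap *RSPH9* on the opposite strand, and those of *MRPL38* overlap an unnamed gene on the same strand. Of all 77 members, 7 have such an overlap on the same strand and 13 on the opposite strand, and for 35 at least 1 pseudogene bears the member's name. A low count of such a gene is thus no measure of a low mRNA level.

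The large and the small subunit did not separate. The median log2-fold change was 0.45 over 46 *MRPL* genes, of which 38 were above 0, and 0.44 over 27 *MRPS* genes, of which 20 were above 0. The difference of the medians was 0.01. Every knockout pool lay above both control pools in 14 *MRPL* (30.4%) and 13 *MRPS* genes (48.1%), and below both in 2 of each. Of the called genes 2 were *MRPL* and 1 was *MRPS*. Assigning genes to the subunit in which their product is found gave medians of 0.42 for 47 large subunit and 0.44 for 25 small subunit genes. Within both subunits, genes listed with bacterial homologs had the higher median, 0.52 for 29 large and 0.52 for 15 small subunit genes. The medians were 0.27 for 18 large and 0.34 for 10 small subunit genes listed as found in mitochondria only. Among the latter was *MRPS18B*, although it is a homolog of bacterial S18. These medians are descriptions over genes, which are not replicates, and no test was made of them.

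Summed levels were also compared pool by pool. All *MRPL* and *MRPS* genes together took 0.525% of the counts in control pool 1 (95% Wilson interval 0.517 to 0.533) and 0.617% in control pool 2 (0.609 to 0.626). In knockout pools they took 0.786% (0.780 to 0.792), 0.596% (0.590 to 0.603) and 0.657% (0.651 to 0.664). The sgMTSS1_2 pool lay between the control pools, so the groups overlapped. The intervals cover counting error alone and treat every count as independent. Without molecular identifiers PCR copies are counted as well, so the intervals may be too narrow even for that error. In CPM, the sum was 5473 ± 1125 (SD, n = 2) in control and 7174 ± 1652 (SD, n = 3) in knockout pools, a ratio of 1.31 that lies within the spread of the pools. The ratio of summed *MRPL* to summed *MRPS* level was 1.27 and 0.841 in control and 1.41, 1.06 and 1.098 in knockout pools. Control pools 1 and 2 thus differed from each other in this ratio by more than the group means, 1.06 and 1.19, did.

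The sgMTSS1_1 pool carried much of the difference. It was the highest of the 3 knockout pools in 63 of the 73 tested members (86.3%), against 38.2% of all tested genes. This held for 41 *MRPL* (89.1%) and 22 *MRPS* genes (81.5%). Against the mean of both control pools on the scale of log2(CPM + 1), the median over members was 0.87 in the sgMTSS1_1 pool, 0.21 in the sgMTSS1_2 pool and 0.34 in the sgMTSS1_3 pool, while over all tested genes it was 0.009, 0.016 and 0.007. In the sgMTSS1_1 pool the *MRPL* median was 1.07 and the *MRPS* median 0.69. In the other pools the order of the subunits was not kept, with 0.19 and 0.28 for the sgMTSS1_2 and 0.36 and 0.34 for the sgMTSS1_3 pool. The sgMTSS1_1 library was also the deepest and had the lowest TMM factor, 0.876, against 0.991 to 1.13 in the other libraries. With all libraries thinned to the smallest total, the median log2-fold changes over all 5 pools were 0.48 for *MRPL* and 0.41 for *MRPS* genes, and with scaling by library size alone they were 0.31 and 0.36, beside −0.17 over all genes. Of the 73 tested members, 62 were above the control mean in the sgMTSS1_1, 44 in the sgMTSS1_2 and 53 in the sgMTSS1_3 pool. Of all 14391 tested genes, 7245, 7332 and 7263 were above it in these pools.

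**Figure D3:**
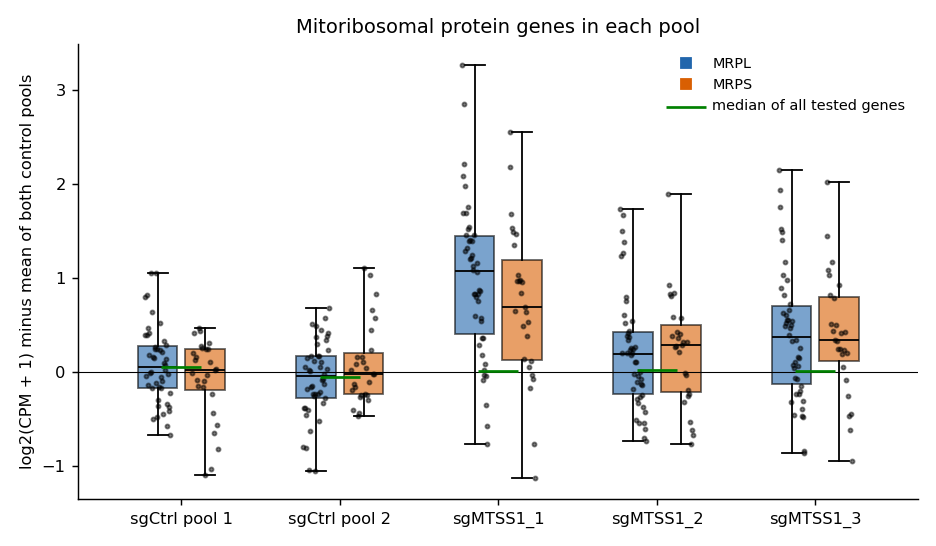
Each tested member's log2(CPM + 1) minus the mean of both control pools, as points, in the 5 pools, with boxes for the quartiles and median of *MRPL* (blue) and *MRPS* (orange) genes, whiskers for the full range and a green line for the median of all tested genes. The control pools mirror each other by construction, and the boxes of the sgMTSS1_1 pool, with medians of 1.07 and 0.69, stand above those of the sgMTSS1_2 and sgMTSS1_3 pools.

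Without the sgMTSS1_1 pool, 47 members were above 0 and 26 below, and the median fell to 0.29. For 11 members the sign turned, and each of them went from above to below 0. They were 9 *MRPL* genes and 2 *MRPS* genes, *MRPS22* and *MRPS35*, and the largest turn was that of *MRPL33*, from 0.48 to −0.35 (named after its values were seen). Only *MRPS27* was called, among 107 genes called higher and 4 called lower of 13358 tested. The control pools differed as well. In 37 of 73 members (50.7%) the log2 difference between the control pools was wider than the log2-fold change, against 56.6% of all tested genes. The median ratio between the control pools was 1.42, and the largest, 6.51, was that of *MRPL36* (named after its values were seen), at 9.69 and 1.49 CPM.

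**Figure D4:**
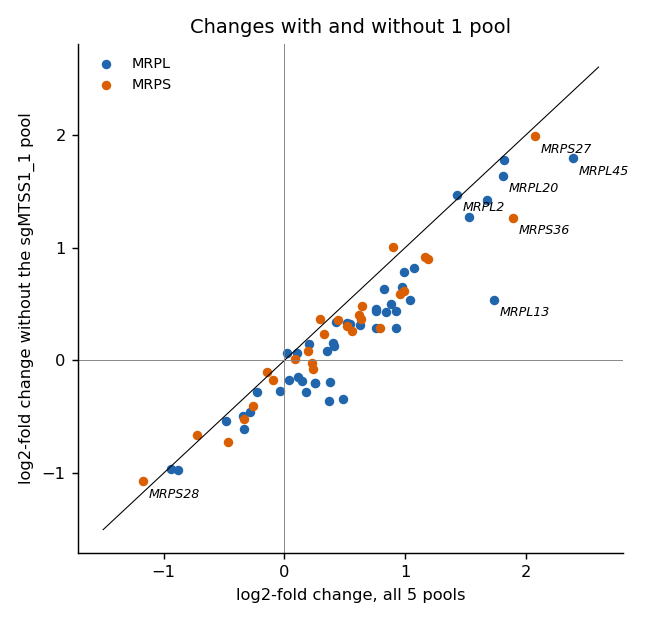
Log2-fold change of each tested member over all 5 pools (horizontal) and without the sgMTSS1_1 pool (vertical), with the line of equal values, *MRPL* in blue and *MRPS* in orange. Most points lie under the line, *MRPL13* drops from 1.74 to 0.53, and *MRPS27*, *MRPL20* and *MRPL2* stay near the line.

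Transcript composition was set beside the changes. Members had shorter transcripts than the tested genes as a whole, with medians of 1315 and 2754 bases, and a similar GC content (47.9% and 47.1%). Across the 73 members, which share the same 5 libraries, the log2-fold change had a Spearman's rho of −0.30 with GC content and 0.20 with length, where rho over all genes was −0.02 and −0.13. In 24 members with a GC content of 51.5% or more the median log2-fold change was 0.18, against 0.52 and 0.53 in the 25 members with the lowest and the 24 with intermediate GC content. All tested genes in the same ranges had medians of −0.05, −0.03 and 0.00. With offsets for GC content and length in each library, the medians of the 3 groups of members were 0.01, 0.43 and 0.42, those of *MRPL* and *MRPS* genes were 0.28 and 0.51, and 53 members remained above 0. Across members, rho was then −0.33 with GC content and 0.32 with length. Without offsets and without the sgMTSS1_1 pool, these rho values were −0.18 and 0.23.

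Promoters of mitoribosomal protein genes are known for binding sites of the ETS family factor GABPA, also called NRF2 in this setting, of NRF1 and of YY1. RefSeq promoter windows on GRCh38.p14, from 250 bases before to 50 bases after the start of transcription, were matched for 68 of the 77 members and searched on both strands for 4 sets of letters. The 4 motifs were CCGGAAG for ETS factors, TGCGCA, a palindrome, for NRF1, AAGATGGC for YY1, and GGGCGG for SP1. The windows of several members are shown for 130 bases, 5′ to 3′ on the strand of the gene, from 100 bases before the start to 30 bases after it, with the letters of any of these motifs, on either strand, in capitals. They are the promoters of the called genes *MRPL20* and *MRPS27*, of *MRPL45* and *MRPL3*, which were high in every knockout pool without being called, and of *MRPL12*, which was low. No window was matched for *MRPL2*, the other called gene.
MRPL20 (chr1:1407264-1407393, minus strand): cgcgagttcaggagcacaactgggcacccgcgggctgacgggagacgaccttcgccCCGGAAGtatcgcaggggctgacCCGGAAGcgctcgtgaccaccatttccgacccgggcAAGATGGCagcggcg
MRPS27 (chr5:72320211-72320340, minus strand): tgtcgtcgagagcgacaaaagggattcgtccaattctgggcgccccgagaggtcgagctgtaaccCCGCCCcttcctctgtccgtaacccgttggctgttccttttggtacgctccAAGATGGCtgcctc
MRPL45 (chr17:38297068-38297197, plus strand): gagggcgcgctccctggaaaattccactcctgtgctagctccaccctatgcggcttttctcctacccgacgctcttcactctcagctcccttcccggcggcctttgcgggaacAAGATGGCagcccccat
MRPL3 (chr3:131502942-131503071, minus strand): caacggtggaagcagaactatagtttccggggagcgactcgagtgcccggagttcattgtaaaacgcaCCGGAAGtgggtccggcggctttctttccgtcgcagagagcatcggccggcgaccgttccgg
MRPL12 (chr17:81703267-81703396, plus strand): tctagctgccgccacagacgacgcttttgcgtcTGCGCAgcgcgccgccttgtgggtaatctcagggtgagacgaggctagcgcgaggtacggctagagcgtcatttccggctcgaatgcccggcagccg

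*MRPL20*, *MRPS27* and *MRPL45* hold the letters AAGATGGC just after the start of transcription, and these letters include an ATG. *MRPL20* and *MRPL3* hold the ETS letters before the start, *MRPL20* at 2 places, and *MRPL12* holds the NRF1 letters. *MRPS27* also holds the SP1 letters. In its full window *MRPL45* holds the NRF1 and SP1 letters as well. *MRPL44*, not shown, was also above both control pools in every knockout pool, and its window holds the SP1 letters alone. The window of *MRPS26*, not shown and lower on average in the knockout pools, holds the ETS and SP1 letters. Over the 68 matched members the ETS letters were found in 42.6% of windows, against 20.6% of the windows of 9118 tested genes and 14.4% of all 15344 windows. The YY1 letters were found in 30.9% of members, against 5.78% and 4.01%, and the NRF1 letters in 20.6%, against 14.2% and 10.9%. The SP1 letters were found in 58.8% of members, against 70.6% and 59.5%. By subunit, the ETS letters were found in 41.5% of 41 *MRPL* and 44.4% of 27 *MRPS* windows, the YY1 letters in 31.7% and 29.6%, and the NRF1 letters in 22.0% and 18.5%. The SP1 letters were found in 51.2% of *MRPL* and 70.4% of *MRPS* windows.

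Among tested members with a window, the 24 whose knockout pools all lay above both control pools held the ETS letters in 37.5% and the YY1 letters in 29.2% of windows. In the other 41 the shares were 43.9% and 26.8%. The difference between these groups of members was not tested. These are matches of letters in a window, and binding was not measured.

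**Figure D5:**
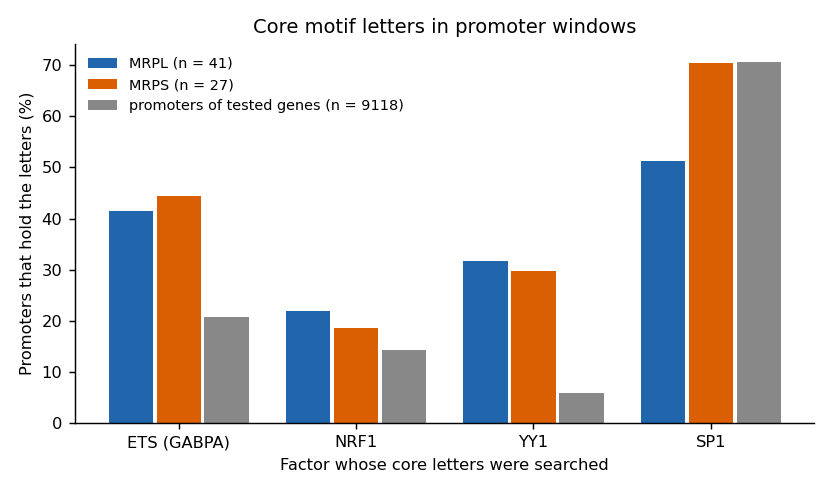
Percent of promoter windows (vertical) that hold the letters of each of 4 factors, for 41 *MRPL* (blue), 27 *MRPS* (orange) and 9118 tested genes (gray). Bars of both subunits stand above gray for ETS, NRF1 and YY1 letters, with 31.7% and 29.6% against 5.78% for YY1, but not for SP1 (51.2% and 70.4% against 70.6%).

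Genes that work with the mitoribosome were looked at as fixed lists. Of the 5 mitoribosomal proteins with other symbols (*DAP3*, *CHCHD1*, *AURKAIP1*, *PTCD3*, *GADD45GIP1*), 4 had a log2-fold change above 0, the median was 0.34, and edgeR, DESeq2 and limma-voom called 0, as did an unadjusted p under 0.05. *DAP3*, a GTP-binding protein of the small subunit, was at 76.3 and 38.74 CPM in control and 164, 66.8 and 99.5 CPM in knockout pools (log2-fold change 0.94, SE 0.45, edgeR's adjusted p = 0.241). *GADD45GIP1*, a large subunit protein, was at 227 and 251 CPM in control and 425, 279 and 347 CPM in knockout pools (log2-fold change 0.55, SE 0.32, edgeR's adjusted p = 0.332). As for most members, the sgMTSS1_1 pool was the highest of the knockout pools for both.

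Of 28 tested mitoribosome assembly factors, 16 were above and 12 below 0, with a median of 0.12. By edgeR, DESeq2 and limma-voom 3 rose and 0 fell, where edgeR called 4.17% of all tested genes higher. At an unadjusted p under 0.05 there were 7 of 28 (25%), 5 higher and 2 lower, near the 23.3% of all tested genes. *DDX28*, an RNA helicase of large subunit assembly, was at 17.8 and 20.6 CPM in control and 71.6, 44.6 and 70.8 CPM in knockout pools (log2-fold change 1.70, SE 0.35, edgeR's adjusted p = 0.026). *TFB1M*, which methylates the rRNA of the small subunit, was at 14.4 and 7.15 CPM in control and 36.4, 31.8 and 33.6 CPM in knockout pools (log2-fold change 1.66, SE 0.38, edgeR's adjusted p = 0.039). *FASTKD2*, which binds the rRNA of the large subunit, was at 17.5 and 23.8 CPM in control and 60.6, 52.9 and 59.3 CPM in knockout pools (log2-fold change 1.48, SE 0.31, edgeR's adjusted p = 0.031). None of the 3 had overlapping groups, and unlike most members they were about as high in the sgMTSS1_3 as in the sgMTSS1_1 pool. Without the sgMTSS1_1 pool none of the 3 was called, with adjusted p between 0.0929 and 0.117, at log2-fold changes of 1.58 (*DDX28*), 1.59 (*TFB1M*) and 1.43 (*FASTKD2*). Calls were also lost without the sgMTSS1_3 pool (0.0910, 0.0984 and 0.103 for *DDX28*, *TFB1M* and *FASTKD2*), without the sgMTSS1_2 pool (0.0768 and 0.0723 for *TFB1M* and *FASTKD2*) and, for *TFB1M*, without control pool 2 (0.0761) and with library size alone (0.0598). The log2-fold changes in these cases were between 1.27 and 1.76. An unnamed gene overlaps the 3′ end of *TFB1M* on the same strand.

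Of 16 tested translation factors, 10 were above and 6 below 0, with a median of 0.20. EdgeR and limma-voom called 0. An unadjusted p under 0.05 was reached by 2 (12.5%, against 23.3% of all tested genes). These, *MTFMT* and *SLIRP*, were called higher by DESeq2, as were 7.23% of all genes that pass the filter. *MTFMT* makes the formylated initiator tRNA and was at 4.69 and 1.49 CPM in control and 17.4, 10.1 and 8.35 CPM in knockout pools (log2-fold change 1.96, SE 0.58, edgeR's adjusted p = 0.082). *SLIRP*, which stabilizes mitochondrial mRNAs, was at 476 and 359 CPM in control and 1768, 809 and 843 CPM in knockout pools (log2-fold change 1.45, SE 0.44, edgeR's adjusted p = 0.089). Of 5 genes of mitochondrial transcription, *TFAM*, which packages mitochondrial DNA and starts its transcription, rose from 67.2 and 57.2 CPM to 314, 190 and 166 CPM (log2-fold change 1.84, SE 0.37, edgeR's adjusted p = 0.026). *POLRMT*, the mitochondrial RNA polymerase, was at 31.6 and 26.5 CPM in control and 10.1, 11.7 and 23.0 CPM in knockout pools (log2-fold change −0.96, SE 0.40, edgeR's adjusted p = 0.188). With any pool but control pool 1 left out, the adjusted p of *TFAM* was between 0.0515 and 0.0682, at log2-fold changes from 1.51 to 2.06. Without control pool 1, *MTFMT* was called (log2-fold change 3.01, adjusted p = 0.0363), while without control pool 2 or the sgMTSS1_1 pool its log2-fold change was 1.38 or 1.57 (adjusted p = 0.186 and 0.232).

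For the RNAs made in mitochondria, which the mitoribosome contains or translates, most log2-fold changes were below 0. Of the 13 mitochondrially encoded mRNAs 4 were above and 9 below 0, with a median of −0.31. Every knockout pool lay above both control pools for 2 of them (15.4%, against 22.2% of all tested genes) and below both for 5 (38.5%, against 19.2%). EdgeR and limma-voom called 0 of the 13, an unadjusted p under 0.05 was reached by 4 (30.8%, against 23.3% of all tested genes), and DESeq2 called 2 higher and 1 lower. Of 10 tested mitochondrial tRNAs 2 were above and 8 below 0, and edgeR called 2 lower, *MT-TG* (log2-fold change −4.003, adjusted p = 0.022) and *MT-TE* (−2.45, adjusted p = 0.043), both named after their values were seen. Of all tested genes edgeR called 1.01% lower. *MT-TG* was at 57.8 and 7.45 CPM in control and 2.72, 2.35 and 0.870 CPM in knockout pools. *MT-TE* was at 111 and 33.1 CPM in control and 6.10, 11.9 and 21.6 CPM in knockout pools. For both, control pool 1 was far above control pool 2. *MT-RNR1*, the rRNA of the small subunit, was at 7633 and 3553 CPM in control and 5613, 3142 and 2784 CPM in knockout pools (log2-fold change −0.54, SE 0.48, edgeR's adjusted p = 0.543). *MT-RNR2*, the rRNA of the large subunit, was at 50752 and 27996 CPM in control and 39212, 26286 and 21525 CPM in knockout pools (log2-fold change −0.44, SE 0.52, edgeR's adjusted p = 0.657). Groups overlapped for both rRNAs. Libraries primed at poly(A) capture these RNAs in a way that depends on their tails or internal A runs, and their level here is no measure of the number of mitoribosomes.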

How the data were processed

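RNA was measured in 5 pools of 4 TF-1 clones. The authors trimmed QuantSeq 3′ mRNA reads with BBDuk, aligned them to GRCh38 with HISAT2 2.1.0, used SAMtools 1.10 to drop reads with several matches, checked quality with FastQC 0.11.9, and deposited raw counts per Ensembl gene. The counting program, annotation release, strand setting and treatment of PCR duplicates are not given in the sources used here. The authors excluded sgCtrl pool 3 and the sgMTSS1_4 pool after an outlier test, and these were not analysed here. Groups come from the sample labels.

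Counts were fitted in R 4.3.3 with edgeR 4.0.16 (TMM, filterByExpr with a minimum count of 10, quasi-likelihood test, Benjamini-Hochberg adjustment over all 14391 tested genes, condition alone). The biological coefficient of variation was 32.2%. Calls required an adjusted p under 0.05 and an absolute log2-fold change over 1. P-values rest on the spread between pools of the same group. In the knockout group this spread includes the different sgRNAs as well as the clones. The fit was also run on counts simulated gene by gene, each gene independent of the others. These held no shift shared by a whole pool, so that run cannot tell how the fit deals with one. Alternatives were DESeq2 1.42.0 (the tool the authors used), limma-voom (limma 3.58.1), other scaling and filters, thinned libraries, offsets for GC content and transcript length (mgcv 1.9.3), a block for the pool number, and each pool left out. Symbols, positions and transcripts are from GENCODE 44, and promoters from RefSeq. Summaries and plots used Python 3.11.15 (matplotlib 3.10.9, pandas 2.3.3, scipy 1.17.1).

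Named members were those with an adjusted p under 0.05, the 5 largest and 5 smallest log2-fold changes, the 4 highest and 3 lowest levels, members removed by the filter, 10 set members, and called or most changed genes of the partner lists. The members and lists were chosen with earlier results of these data known. Markers of TF-1 and other cells were a fixed list, of which 1 is not reported here. Of the partner lists, *MRM2* and *PDF* were not analysed here and *TSFM* was removed by the filter.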

Additional observations from a re-analysis of the deposited data

How the results depend on the processing

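The count of called members, 3 in the analysis reported, was 5 with a minimum of 10 counts in every library, 13 with DESeq2, 6 with GC and length offsets, 5 with limma-voom and 11 without a filter, all higher in the knockout. Over all tested genes, 600 of 14391 were called higher in the analysis reported. In these alternatives, in the same order, they were 488 of 10734, 1042 of 27328, 734 of 14391, 510 of 14391 and 1173 of 27328. With each replicate left out in turn the count ranged from 1 to 12. It was 1 (*MRPS27*) without the sgMTSS1_1 or sgMTSS1_3 pool, 2 without the sgMTSS1_2 pool, 5 without control pool 2, and 12 without control pool 1, of which 9 were higher and 3 lower. Where a group was left with 1 pool, that pool is assumed to vary like the other group. Across all alternatives, the genes called higher ranged from 107 of 13358 without the sgMTSS1_1 pool to 1173 of 27328 without a filter. In these fits 4 and 201 genes were called lower. RLE size factors, library size alone and thinning gave 3, 3 and 4 members. Over all genes they called 564 of 14391, 568 of 14391 and 573 of 12424 higher. The adjusted p alone gave 3 members. With library size alone the median over all genes was −0.17, and the medians of *MRPL* and *MRPS* genes were 0.31 and 0.36.

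Left-out pools gave medians of 0.22 to 0.72 for *MRPL*, 0.29 to 0.56 for *MRPS* and −0.07 to 0.20 for their difference. The difference was −0.23 with GC and length offsets and −0.25 with these offsets and the replicate block. The cause of these shifts was not tested. Signs turned for *MRPS18B* (−0.066 with offsets, −0.59 without control pool 1, 1.49 without control pool 2), *MRPL58* (−0.077 with offsets, −0.062 with library size alone, −0.058 with block and offsets, and from −0.15 to 0.50 with a pool left out), *MRPL39* (from −0.36 to 1.13 with a pool left out, below 0 without the sgMTSS1_1 pool or control pool 2), *MRPS25* (−0.26 without control pool 1, 1.97 without control pool 2), *MRPL41* (−0.83 and 0.024 without control pool 1 and 2) and *MRPS12* (−0.76 and 0.57).

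The numbers 1 and 2 are shared by control and knockout pools, but nothing says that same-numbered pools were handled together. The differences between pools 1 and 2 of each group had a Pearson's r of 0.18 across genes. With the replicate block 8 members were called, and 7 with the block and offsets. In these fits 894 and 851 of all 14391 tested genes were called higher.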

Other observations

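*MRPL39* and *MRPL49*, large subunit proteins with the lowest mean levels after *MRPL46*, were at 8.44 and 3.58 CPM and at 5.003 and 1.49 CPM in the control pools, and at 13.6, 3.61 and 5.74 CPM and 10.2, 3.43 and 4.52 CPM in the knockout pools. Their groups overlapped, with log2-fold changes of 0.37 and 0.92 (edgeR's adjusted p = 0.770 and 0.450). The value of *MRPL49* was 2.04 without control pool 1, 0.32 without control pool 2 and 0.29 without the sgMTSS1_1 pool. *MRPS7* and *MRPS31*, which lay below both control pools in every knockout pool, had control pools that nearly coincided. *MRPS7* was at 49.1 and 47.4 CPM in control and 45.7, 27.8 and 31.0 CPM in knockout pools, and *MRPS31* at 70.7 and 68.5 CPM in control and 68.0, 47.8 and 49.8 CPM in knockout pools. In both, the sgMTSS1_1 pool was close to the control pools and the other knockout pools were lower, so that the sgMTSS1_1 pool was the highest knockout pool here too.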
